A study of Mus musculus with 4 samples.

Results

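Hmga2 and Hmga1 encode the high mobility group A proteins, and their RNA was looked for in cultured mouse keratinocytes with and without deletion of Prdm1, the gene of the transcriptional repressor Blimp-1. Members were the probe sets whose platform annotation symbol is Hmga2 or Hmga1. The rule found 3 probe sets of the 22626 on the array, all of them naming Hmga2 alone (1450780_s_at, 1422851_at and 1450781_at). None of the annotated probe sets named Hmga1, so 1 of the 2 genes has values and the level of Hmga1 was not analysed here. Hmga2 was picked from its log2 intensities over these 4 cultures, with its height in 1 of them already known, so its levels are given as a description. Below, the probe sets are called the brightest, the middle and the dimmest, in the order just given, by their level in CKO 4OHT.

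The cells were primary keratinocytes from the tail skin of C57BL/6 mice, grown without serum on collagen-coated plates and read on a 3′ expression array, 1 array for each of 4 cultures. CKO 4OHT cells carried floxed Prdm1 and CreER, a Cre recombinase switched on by 4-hydroxytamoxifen (4OHT), and were given 4OHT from day 1 to day 3. CKO EtOH cells had the same genotype and were given the solvent ethanol instead. Control 4OHT and control EtOH cells carried floxed Prdm1 without CreER and were given 4OHT or ethanol on the same days. All cultures were collected on day 5. The sources used here do not say which promoter drives CreER, which part of Prdm1 is floxed or how many mice stand behind each culture. Cells with and without CreER came from different mice, so genotype and animal cannot be told apart. With 1 array per culture there is no estimate of error, no difference could be tested, and the number of arrays limits the precision of every value.

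HMGA proteins are small nuclear proteins that bind the minor groove of AT-rich DNA through short basic motifs called AT-hooks, bend it, and help other factors assemble on promoters and enhancers. Hmga2 is abundant in the embryo, is low in most adult tissues, and returns in many tumours. Mice without a working Hmga2 gene are pygmy, and its mRNA is a classic target of the let-7 microRNAs. Hmga1 is the more widely expressed relative and is known for its part in the interferon-beta enhanceosome.

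Levels below are intensities from RMA, which corrects background, normalizes between arrays and summarises each probe set, and are linear. Differences are given as log2, where 1 is a 2-fold difference. A gene was represented by its probe set with the highest mean log2 value, and counted as measured when at least 1 array reached the table's overall median of 20.04, which held for 7461 genes. Prdm1 was 6.43 in CKO 4OHT, 17.0 in CKO EtOH, 52.4 in control 4OHT and 20.7 in control EtOH. It was thus lowest in the culture with CreER and its inducer, although both CKO values lay under the table median. In control cells Prdm1 was higher with 4OHT than with ethanol, by 1.34 on the log2 scale. Esr1, the gene whose ligand-binding part is fused to Cre in CreER constructs, was 44.4 and 54.3 in CKO 4OHT and CKO EtOH against 18.2 and 11.3 in control 4OHT and control EtOH, although whether its probe set reads the CreER transcript is not known. Of 8 keratinocyte markers on the array, 7 reached the table median on every array, with a summed intensity of 19708 to 20433. Krt14, a basal keratin, was the brightest of them (6437 to 6663). Array medians lay between 19.95 and 20.22 intensity units.

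Hmga2 RNA was high in CKO 4OHT cells and low in the other 3 cultures by every probe set. By the brightest probe set Hmga2 had an intensity of 356 in CKO 4OHT, 21.1 in CKO EtOH, 17.2 in control 4OHT and 22.3 in control EtOH. The CKO 4OHT value stood higher than 94.1% of all probe sets on its array, while the other 3 values lay near the middle of theirs, above 51.2%, 46.5% and 52.2%. By the middle probe set the intensities were 242 in CKO 4OHT, 25.05 in CKO EtOH, 20.6 in control 4OHT and 23.0 in control EtOH. By the dimmest they were 66.9 in CKO 4OHT, 6.00 in CKO EtOH, 5.53 in control 4OHT and 6.46 in control EtOH. The last 3 of these values fell under the 25th percentile of their arrays (7.12 to 7.48), so this probe set did not resolve Hmga2 from dim signal outside CKO 4OHT. The table carries no detection calls, and none of the 9 values outside CKO 4OHT can be said to be above background.

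**Figure D1:**
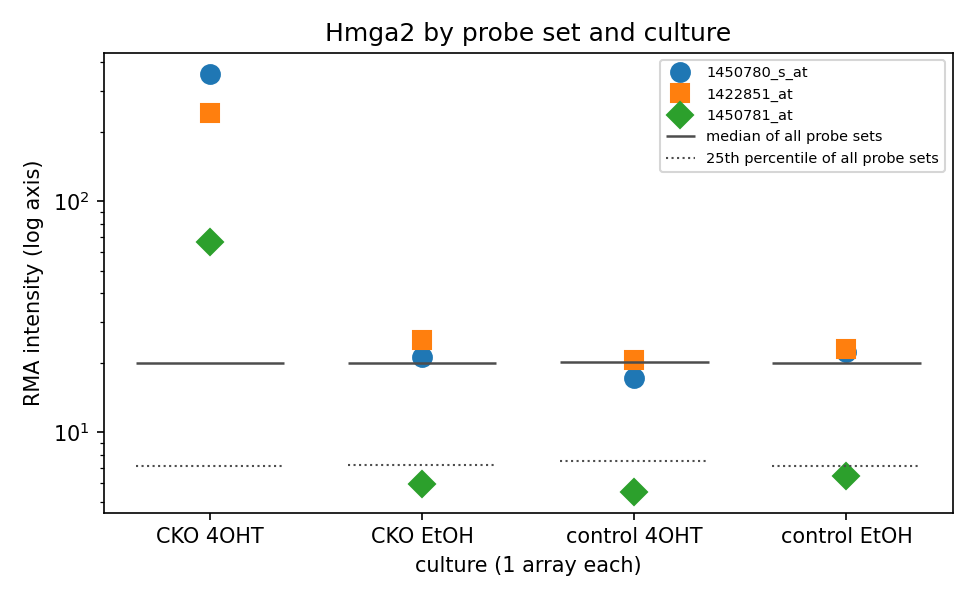
RMA intensity of the 3 Hmga2 probe sets (log axis) in the 4 cultures, 1 array each, with the median (solid line) and 25th percentile (dotted line) of all probe sets on that array. All 3 points of CKO 4OHT (66.9, 242 and 356) lie above the array median, whereas the other cultures have 2 probe sets near the median and 1 under the 25th percentile.

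The order of the 4 cultures was the same below the top for 2 of the 3 probe sets. By the brightest and the dimmest, control EtOH came next after CKO 4OHT, then CKO EtOH, then control 4OHT. By the middle one, CKO EtOH came next, then control EtOH, then control 4OHT. These 3 cultures spanned a range of 0.37 (brightest), 0.28 (middle) and 0.22 (dimmest) on the log2 scale. The median range of measured genes over the same 3 arrays was 0.26, and 71.3% of them had a smaller range than Hmga2 by its brightest probe set. The 90th percentile of this range over measured genes was 0.57. Control 4OHT was lowest by all 3 probe sets, but the gaps between neighbours in this order lie within the range that many genes show.

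As the table gives them, the CKO 4OHT value exceeded the next array 15.99-fold by the brightest probe set, 9.66-fold by the middle and 10.4-fold by the dimmest. These sizes rest on values outside CKO 4OHT that are not shown to be above background, so they are imprecise. On the log2 scale the first of them is 4.00, close to the gaps of Cxcl2 (4.10, against a next array of 12.9) and Il24 (4.09), and the order of these genes is not resolved. Of all measured genes, 56 lay at least 2-fold above every other array in CKO 4OHT, a share of 0.751%. The same count was 21 genes (0.281%) in control 4OHT and 0 in CKO EtOH and in control EtOH. The probe sets are no replicates of each other, since they read the same 4 RNA samples and all trace to 1 deposited sequence. The ending of the brightest one, _s_at, marks a probe set whose design allows it to bind more than 1 transcript, and the RefSeq gene table holds a transcribed pseudogene of Hmga2. The other 2 probe sets do not carry this ending and also ranked CKO 4OHT over the rest. That ranking cannot tell the RNA of the gene from that of the pseudogene. Whether any of these probe sets reads the pseudogene was not tested.

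Inducer against solvent in cells with CreER was read from CKO 4OHT minus CKO EtOH. Hmga2 differed by 4.08 (16.9-fold) by the brightest probe set, by 3.27 (9.66-fold) by the middle and by 3.48 (11.2-fold) by the dimmest. Of the 7461 genes, 133 (1.78%) were at least 2-fold higher here and 139 (1.86%) at least 2-fold lower. Cells with and without CreER, both given the drug, were compared by CKO 4OHT minus control 4OHT. These cells also came from different mice. Hmga2 differed by 4.37 (20.7-fold), 3.56 (11.8-fold) and 3.60 (12.1-fold) by the same probe sets in the same order. In that comparison 108 genes (1.45%) were higher and 167 (2.24%) lower. Both comparisons share the CKO 4OHT array.

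Without CreER, Hmga2 was not higher with the drug. In control 4OHT minus control EtOH it differed by -0.37 by the brightest probe set, -0.16 by the middle and -0.22 by the dimmest, where the median of all measured genes was -0.044. The background in this comparison was 95 genes (1.27%) at least 2-fold higher and 18 (0.241%) lower. With CreER but no inducer, in CKO EtOH minus control EtOH, Hmga2 differed by -0.08, 0.12 and -0.11. Only 4 measured genes (0.0536%) were 2-fold higher there and 0 lower. The drug effect in CKO cells exceeded that in control cells by 4.45, 3.43 and 3.70 for the 3 probe sets. A difference of that kind of at least 2-fold was seen upward in 205 genes (2.75%) and downward in 216 (2.90%).

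**Figure D2:**
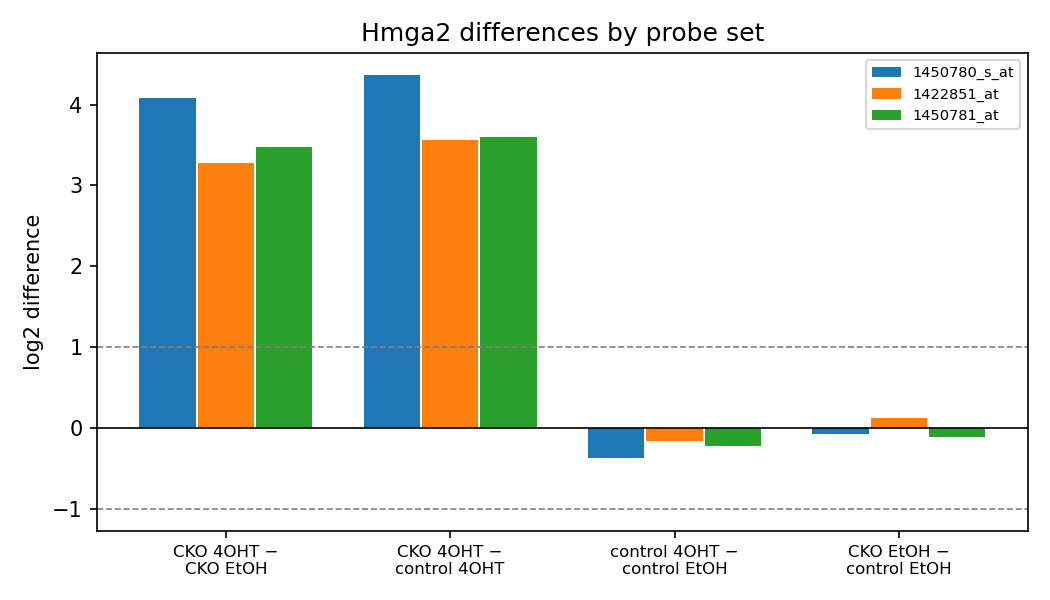
Log2 differences of Hmga2 in 4 comparisons of cultures (1 array each), with a bar for each probe set and dashed lines at a 2-fold difference. Bars of both comparisons that contain CKO 4OHT lie between 3.27 and 4.37, and those of the comparisons without it between -0.37 and 0.12.

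The probe sets of Hmga2 agreed on direction but not on size. Their differences spanned 0.80 in CKO 4OHT minus CKO EtOH and 0.81 in CKO 4OHT minus control 4OHT. Among 35 genes at least 2-fold higher in the first of these and read by more than 1 measured probe set, all probe sets were at least 2-fold higher for 23, Hmga2 included, and the median span between probe sets was 0.44. In the second, this held for 25 of 32 genes, with a median span of 0.29. Hmga2 thus had a wider span than the typical gene of this kind, with its lowest difference at 3.27.

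The promoter of Hmga2 is shown because the study deletes a DNA-binding repressor. The window of 300 bases (RefSeq, GRCm38.p6, chr10:120476420-120476719, minus strand, read in the direction of transcription) runs from 250 bases before to 50 after the annotated start. Capitals mark the match to a Blimp-1 core motif.
Hmga2 promoter: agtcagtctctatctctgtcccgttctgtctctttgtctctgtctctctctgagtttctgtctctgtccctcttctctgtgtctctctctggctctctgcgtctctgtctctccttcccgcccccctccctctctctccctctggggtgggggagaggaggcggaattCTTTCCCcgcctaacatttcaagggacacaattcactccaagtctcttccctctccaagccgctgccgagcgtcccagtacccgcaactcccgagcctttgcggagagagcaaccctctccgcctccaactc
The window is rich in C and T on the strand shown. These letters make up 69% of it, more than in 99.6% of 32851 promoter windows of the same length, whose median was 49.7%. Its longest unbroken run of C and T is 23 bases, against a median of 9. The Blimp-1 core was searched as GNGAAAG on both strands, and 1 match lies on the opposite strand, where it reads CTTTCCC in the window at 82 bases before the start. A match of this kind is held by 22.6% of all windows, so it is common. The AP-1 motif TGACTCA (in 5.20% of windows) and the E-box CACGTG (in 7.15%) have no match in the window. A match describes letters and is no evidence of binding.

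The genes with profiles most like that of Hmga2 were found by the root mean square difference between log2 values over the 4 arrays, after each gene was centred on its own mean. The 8 nearest were Il24 (0.23), Cxcl2 (0.25), Fst (0.28), Cxcl1 (0.29), Dusp6 (0.38), Phlda1 (0.47), Cxcl5 (0.54) and Fos (0.74). Il24 is a cytokine of the IL-10 family, and its intensity was 920 in CKO 4OHT against 42.3 to 53.9 in the other cultures. Cxcl2, Cxcl1 and Cxcl5 are chemokines that draw neutrophils, and their intensities in CKO 4OHT were 220, 591 and 121. On the other arrays Cxcl2 lay between 9.06 and 12.9, Cxcl1 between 36.2 and 53.7 and Cxcl5 between 9.87 and 16.1.

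Fst encodes follistatin, which binds and blocks activin, and it stood at 569 in CKO 4OHT, with 27.9 to 50.98 elsewhere. Fst was highest after CKO 4OHT in control EtOH, as Hmga2 was by its brightest probe set. Dusp6, a phosphatase that switches off ERK kinases, was 108 in CKO 4OHT against 9.75 to 12.5. Phlda1, a small intracellular protein with a pleckstrin homology-like domain, was 432 against 47.5 to 51.3, and Fos, which forms AP-1 with Jun proteins, was 172 against 27.1 to 32.3. All 8 had CKO 4OHT as the highest array by more than 5-fold, which this measure of likeness favours.

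The measure rests on 4 arrays, and a single high array is enough to make profiles alike. By Pearson correlation over the 4 arrays, 19 of 452 genes with a range of at least 1 log2 reached 0.99 with Hmga2, and the 8 highest shared 0 genes with the list above. The highest were Ino80c, a subunit of the INO80 chromatin remodeller (22.1 in CKO 4OHT against 10.7 to 11.6), and Akap12, an anchoring protein for protein kinase A (30.9 against 10.05 to 10.5), both of them dim outside CKO 4OHT. Fosl1, another AP-1 subunit, was also among these 8 (59.4 against 17.1 to 17.5).

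**Figure D3:**
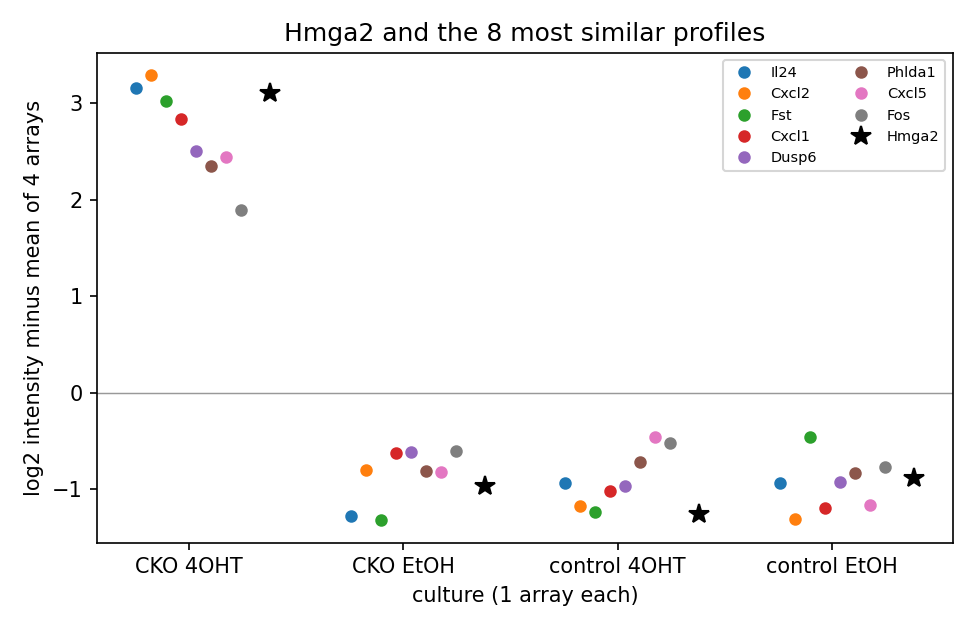
Log2 intensity minus the mean of the 4 arrays for Hmga2 (star, brightest probe set) and the 8 genes with the most similar profiles (dots), by culture, 1 array each. Every gene shown is highest in CKO 4OHT, and the other 3 cultures lie below the gene's own mean.

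No other high mobility group protein that was measured was 2-fold higher in CKO 4OHT. The HMGB and HMGN proteins bend DNA or bind nucleosomes through domains unrelated to the AT-hook. Of 10 listed genes 7 were named on the array and 6 were measured, and in CKO 4OHT minus CKO EtOH 0 of the 6 were 2-fold higher and 1 was lower, with a median of -0.24. Over all measured genes the shares were 1.78% higher and 1.86% lower and the median 0.0085, and a list this short says little beside them. The lower one was Hmgn5, a nucleosome-binding protein, with intensities of 17.0 in CKO 4OHT, 34.8 in CKO EtOH, 23.0 in control 4OHT and 40.4 in control EtOH. Its CKO 4OHT value lay under the table median, so the size of its difference is imprecise. Hmgn5 was lower with the drug in both genotypes, with differences of -1.03 in CKO cells and -0.81 in control cells.

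Hmgn1, another nucleosome-binding protein, was the brightest, at 1395 in CKO 4OHT, 1714 in CKO EtOH, 1491 in control 4OHT and 1680 in control EtOH. Hmgb2, an HMG-box protein of dividing cells, was 134, 144, 138 and 179 in the same order, and Hmgb3 was 94.7, 124, 86.4 and 136. Hmgn3 was between 79.8 and 92.5 and Hmg20b, a subunit of a histone demethylase complex, between 34.0 and 42.7. Against control 4OHT the differences of these 6 genes in CKO 4OHT lay between -0.44 and 0.13, with a median of -0.14. Hmgb4 did not reach the table median on any array (4.51 to 5.48).

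Other proteins that pack chromatin or bind AT-rich DNA came next. Linker histones compete with HMGA proteins for DNA, and 2 of 7 listed were measured. H1f2 was 128 in CKO 4OHT, 95.9 in CKO EtOH, 107 in control 4OHT and 87.6 in control EtOH, and H1f10 was between 19.7 and 25.9. Of 12 further AT-hook or AT-rich DNA binding proteins 5 were measured, and 0 were past 2-fold in the 4 comparisons, where the shares over all measured genes were at most 2.24% in 1 direction. Baz2a, a subunit of a remodeller of silent ribosomal genes, was 60.5 in CKO 4OHT, 69.4 in CKO EtOH, 86.0 in control 4OHT and 77.6 in control EtOH, and Phf21a, a reader of unmethylated histone H3, was between 50.6 and 60.1.

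The subunits of 2 large chromatin complexes were described in the same way. None of 11 measured SWI/SNF subunits, parts of an ATP-driven nucleosome remodeller, was past 2-fold in a comparison, beside the same background shares. Their medians were -0.10 in CKO 4OHT minus CKO EtOH and 0.039 in CKO 4OHT minus control 4OHT, where all measured genes had medians of 0.0085 and 0.013. The brightest were Smarcd2, at 182 in CKO 4OHT, 212 in CKO EtOH, 253 in control 4OHT and 261 in control EtOH, and Smarce1, an HMG-box subunit, between 167 and 192. Smarca4, an ATPase of the complex, was between 170 and 179. None of 11 measured Polycomb subunits, which silence genes through histone marks, was past 2-fold either (medians -0.19 and -0.032). Phc2 was the one nearest to it, at 199.7 in CKO 4OHT, with 127 in CKO EtOH, 114 in control 4OHT and 120 in control EtOH. Eed, the next brightest, was 160.2 in CKO 4OHT, 119 in CKO EtOH, 114 in control 4OHT and 143 in control EtOH. Ezh2, which methylates histone H3 at lysine residues, was 74.0 in CKO 4OHT and 83.4 to 96.1 in the other cultures.

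**Figure D4:**
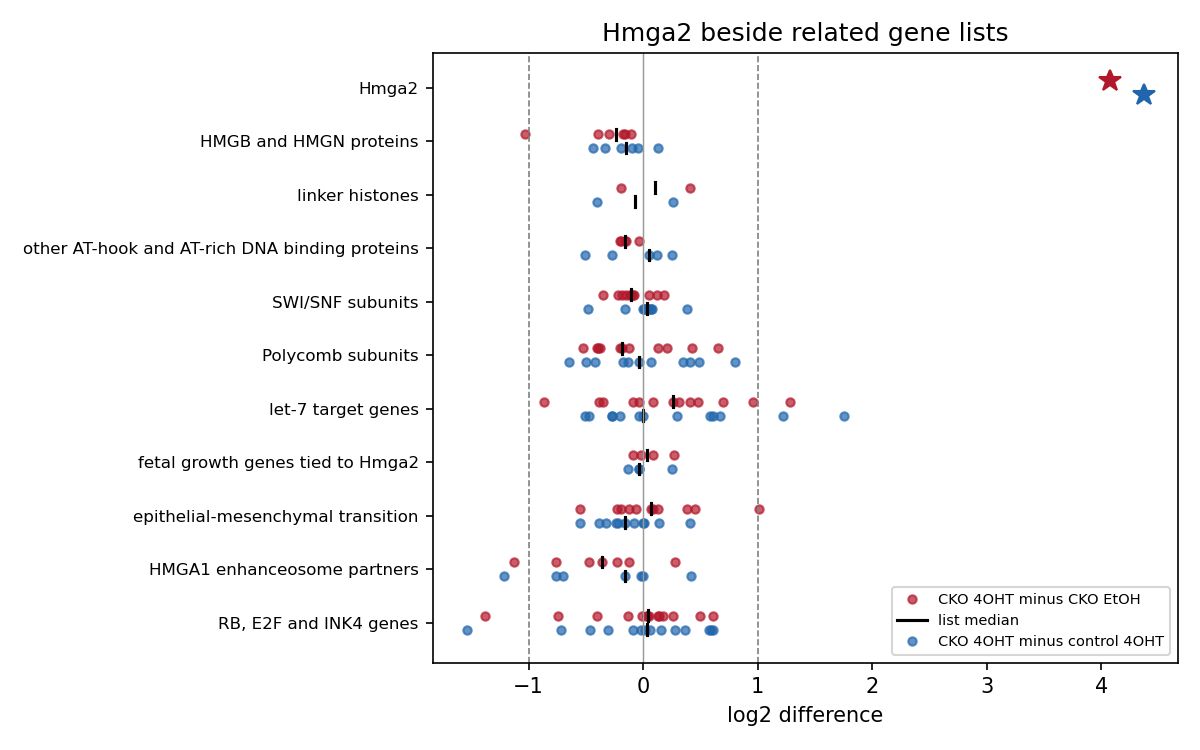
Log2 differences of Hmga2 (stars, 4.08 and 4.37) and of the measured members of 10 gene lists (dots) in CKO 4OHT minus CKO EtOH (red) and CKO 4OHT minus control 4OHT (blue), with list medians as black ticks and dashed lines at a 2-fold difference. The listed genes lie between -1.54 and 1.75.

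The let-7 microRNAs restrain Hmga2 mRNA in many tissues, so genes known as let-7 targets, in mouse or human cells, were set beside it. From the RefSeq table (GRCm38.p6) 8 let-7 names with different mature sequences were taken, and these 8 share 1 seed. Any let-7 entry on 1 further chromosome was left out beforehand, so the shared seed is stated for these 8 names only. A set of 3 is printed to show what is shared, with the seed, bases 2 to 8, in capitals.
mmu-let-7a-5p: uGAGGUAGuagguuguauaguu
mmu-let-7d-5p: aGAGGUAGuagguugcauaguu
mmu-let-7i-5p: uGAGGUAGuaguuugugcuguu
The array values used here include no mature microRNA, and let-7 itself was not analysed here. Of 26 listed target genes 20 were named on the array and 13 measured. In CKO 4OHT minus CKO EtOH 1 was 2-fold higher, 0 were lower and 12 were neither, with a median of 0.26, where all measured genes had 1.78% higher, 1.86% lower and a median of 0.0085. In CKO 4OHT minus control 4OHT 2 were higher, 0 lower and 11 neither, with a median of -0.0045, where all measured genes had 1.45% higher, 2.24% lower and a median of 0.013.

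The 2 higher genes were Ccnd1 and Myc. Ccnd1, the G1 cyclin D1, was 521 in CKO 4OHT, 215 in CKO EtOH, 154 in control 4OHT and 250 in control EtOH, with differences of 1.28 against CKO EtOH and 1.75 against control 4OHT. Its other 2 measured probe sets gave 1.19 and 1.36 against CKO EtOH and 1.68 and 1.48 against control 4OHT. Myc, a growth-promoting transcription factor, was 312 in CKO 4OHT, 161 in CKO EtOH, 134 in control 4OHT and 140 in control EtOH, with differences of 0.96 and 1.22. Both genes were highest in CKO 4OHT, at a far smaller fold than Hmga2. Other targets moved less: Cdc34, a ubiquitin-conjugating enzyme, differed by 0.69 and 0.61 in these comparisons, and Tgfbr1, a TGF-beta receptor, by -0.86 and -0.47.

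Hmga2 is often found together with other oncofetal genes. Several of those listed were under the table median on all arrays, among them Dlk1, Mest, Sall4 and the 3 given next. Lin28a, which blocks let-7 maturation, was between 4.22 and 4.91 on the 4 arrays. Igf2bp1 and Igf2bp3, embryonic mRNA-binding proteins, were between 9.13 and 12.3 and between 5.59 and 8.06. Of the 14 listed fetal growth genes 11 were named and 4 measured, with 0 past 2-fold in the 4 comparisons, too few to set against the background shares. The brightest were Igf1r, the receptor of insulin-like growth factors, between 58.8 and 63.9, and Peg3, an imprinted zinc finger gene, between 35.8 and 38.4. Plagl2, a relative of Plag1, was between 21.1 and 24.4. Plag1, a zinc finger factor known to be activated by HMGA2 in human cells and other mammals, was between 4.11 and 5.52. Igf2, a fetal growth factor, was 34.3 in CKO 4OHT, 28.5 in CKO EtOH, 28.8 in control 4OHT and 26.4 in control EtOH.

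Hmga2 is known from other cells as an inducer of epithelial-mesenchymal transition, the loss of epithelial character seen in development and tumours. Of 18 such genes, all named on the array, 11 were measured. In CKO 4OHT minus CKO EtOH 1 of them was 2-fold higher and 0 lower (median 0.071), beside 1.78% and 1.86% of all measured genes, and in CKO 4OHT minus control 4OHT 0 were past 2-fold (median -0.15). The list holds both epithelial and mesenchymal genes, so its median gives no direction between these states. The higher one was Epcam, an epithelial adhesion molecule, at 325 in CKO 4OHT, 161 in CKO EtOH, 245 in control 4OHT and 164 in control EtOH. Epcam was higher in both cultures with the drug than in both with solvent, by 1.01 in CKO cells and 0.58 in control cells.

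Most of the listed transcription factors that drive this transition stayed dim. Snai1 (no higher than 10.996), Twist1 (4.31 to 4.56), Zeb1 (no higher than 11.02) and Zeb2 (3.32 to 3.68) were under the table median on all arrays. Snai2, the 1 such factor that was measured, was 59.4 in CKO 4OHT, 86.9 in CKO EtOH, 66.1 in control 4OHT and 84.8 in control EtOH. Cdh1, the epithelial cadherin, was 238 in CKO 4OHT, 272 in CKO EtOH, 350 in control 4OHT and 245 in control EtOH. Vim, the mesenchymal filament protein vimentin, stood at 16.1 in CKO 4OHT, with 8.70 in CKO EtOH, 8.77 in control 4OHT and 8.47 in control EtOH, all under the table median, so this difference rests on dim values.

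HMGA2 is known to relieve RB, the brake on E2F factors, and to repress the Ink4a/Arf locus in mouse stem cells. Of 17 listed RB, E2F and cell cycle inhibitor genes 14 were measured, and in both comparisons of CKO 4OHT 0 were 2-fold higher and 1 lower, with medians of 0.043 against CKO EtOH and 0.036 against control 4OHT. Of all measured genes 1.86% and 2.24% were lower in these comparisons. The lower one was Cdkn2d, an inhibitor of CDK4 and CDK6, at 15.8 in CKO 4OHT, 40.9 in CKO EtOH, 45.7 in control 4OHT and 44.3 in control EtOH. The CKO 4OHT value of Cdkn2d lay under the table median, so the size of its differences is imprecise. Cdkn2a, the Ink4a/Arf gene, was between 4.01 and 4.60 and so too dim to compare. Ccna2, cyclin A2, an HMGA2 target known from human cells, stood at 192 in CKO 4OHT, with 321 in CKO EtOH, 315 in control 4OHT and 361 in control EtOH. Cdkn1a, the inhibitor p21, was 1580 in CKO 4OHT against 1032, 1037 and 1168 in the other cultures in that order. Neither Ccna2 nor Cdkn1a was past 2-fold.

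For Hmga1, which had no value, the proteins that it joins in the interferon-beta enhanceosome were described. Of 11 listed 7 were measured, and in both comparisons of CKO 4OHT 1 was 2-fold lower and 0 higher, with medians of -0.36 against CKO EtOH and -0.16 against control 4OHT, beside the same background of 1.86% and 2.24% lower. The lower gene was Irf1, an interferon regulatory factor, at 56.1 in CKO 4OHT, 123 in CKO EtOH, 130 in control 4OHT and 85.5 in control EtOH. Jun, the AP-1 partner of Fos, was 147 in CKO 4OHT, 250.3 in CKO EtOH, 249 in control 4OHT and 188 in control EtOH. Rela, an NF-kB subunit, was between 197 and 252, and Ifnb1, the interferon gene that the enhanceosome switches on, was between 5.90 and 8.72.

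Of the genes beside Hmga2 on chromosome 10, 3 could be read. This group, the 6 protein-coding genes on either side in the RefSeq table, was chosen after the values of Hmga2 were known. Of the 12 neighbours 6 were named on the array and 3 measured. Tmbim4 was 156 in CKO 4OHT, 128 in CKO EtOH, 138 in control 4OHT and 128 in control EtOH. Cand1 was between 235 and 241, and Rassf3 between 19.2 and 22.7. Both nearest neighbours, Llph and Msrb3, had no probe set naming them alone.

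Most markers of fibroblasts, leukocytes and endothelial cells were under the table median on all arrays, whereas most melanocyte markers reached it. In bulk RNA, fewer cells of a type and less RNA per cell cannot be told apart. Embryonic fibroblasts are known to express Hmga2. Of 8 fibroblast markers 1 (Dcn) reached the table median, with summed intensities of 77.0 in CKO 4OHT, 79.3 in CKO EtOH, 80.8 in control 4OHT and 76.0 in control EtOH. Col1a1 and Col3a1, defining collagens of fibroblasts, were no higher than 7.90 and 5.26 on any array. Of 5 melanocyte markers, 4 reached the table median in CKO 4OHT and 3 in each other culture, with sums of 129 in CKO 4OHT, 101 in CKO EtOH, 113 in control 4OHT and 112 in control EtOH. Leukocyte markers (8 genes) summed to 84.0 to 85.1, with Ptprc at 3.90 to 4.73, and endothelial markers (4 genes) to 30.7 to 37.9. The fibroblast sum in CKO 4OHT lay within the range of the other cultures. Every fibroblast marker but Dcn was under the table median, so this sum could miss a shift in fibroblasts. The melanocyte sum was highest in CKO 4OHT. The part of either cell type in the Hmga2 difference was not tested.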

How the data were processed

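The authors deposited linear intensities, 1 for each probe set on each array, made with RMA per the submitters' processing notes, which name no version. RMA brings arrays to like distributions and shrinks differences between dim values. From the deposited intensities log2 was taken with no pseudocount (Python 3.11.15, pandas 2.3.3, numpy 2.4.6). Gene names came from the platform annotation: of 22626 probe sets 20380 named 1 gene, 691 several, and 1555 were not listed, and no gene was read from these last 2 kinds. A gene was called higher or lower at a log2 difference of at least 1. Groups follow the sample titles, with 1 array per group, so nothing was tested. The steps were tested on simulated data with planted differences and little noise, which checks the code and says nothing about these arrays. The members and the 10 gene lists and 5 marker lists were chosen with earlier results of these data known. Genes named were Hmga2, Prdm1 and Esr1, the 8 profiles nearest to Hmga2, HMGB and HMGN genes, and list members past 2-fold or, failing these, the brightest 2. Ino80c, Akap12, Fosl1, further list members, dim genes and the neighbours were named after their values were seen. Alternatives covered scaling, dim values, pseudocount, level filter, fold threshold and probe set. Promoter and microRNA sequences are RefSeq's (GRCm38.p6).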

Additional observations from a re-analysis of the deposited data

Results flagged for a closer look

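For several genes the drug effect went opposite ways in CKO and control cells and differed by at least 2-fold between them; with 1 array per culture the difference was not tested. Each value is the difference of the drug effects, CKO minus control, on the log2 scale. Hmga2 had 4.45 by the brightest probe set, 3.43 by the middle one and 3.70 by the dimmest, higher with the drug in CKO cells and slightly lower in control cells. Among the genes with profiles nearest to Hmga2, Fst had 5.13, Il24 had 4.45 and Dusp6 had 3.16, where the drug effect in control cells was -0.78 for Fst, -0.0033 for Il24 and -0.040 for Dusp6. These genes were picked for likeness to Hmga2 on the same arrays, which favours a like difference. Ccnd1 had 1.97, with 1.28 in CKO cells and -0.70 in control cells, and Myc had 1.02. The opposite direction was seen for Irf1, at -1.74 (-1.13 in CKO cells and 0.61 in control cells), for Cdkn2d, at -1.42, for Jun, at -1.17 (-0.76 in CKO cells and 0.40 in control cells), and for Thbs1, at -1.09 (-0.35 in CKO cells and 0.74 in control cells). In Il24, Dusp6, Myc and Cdkn2d the effect in control cells was close to 0, so its sign carries little. The same holds for Hmga2, where this effect (-0.37, -0.16 and -0.22) rests on values not shown to be above background.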

How the results depend on the processing

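The gap of Hmga2 between CKO 4OHT and the next array was between 3.27 and 4.00 under the 8 settings run. With log2(intensity + 16) its differences were 3.33 in CKO 4OHT minus CKO EtOH, 3.48 in CKO 4OHT minus control 4OHT and 3.53 for the difference of the drug effects, and its gap to the next array was 3.28. By the middle probe set these were 3.27, 3.56, 3.43 and 3.27, and by the dimmest 3.48, 3.60, 3.70 and 3.37; the median over the 3 probe sets gave 3.48, 3.60 and 3.70. In CKO EtOH minus control EtOH the sign changed with the probe set (-0.11 to 0.12). Counts of genes higher and lower depended most on the settings. With log2(intensity + 16) they were 80 and 60 in CKO 4OHT minus CKO EtOH, 59 and 88 in CKO 4OHT minus control 4OHT, 63 and 0 in control 4OHT minus control EtOH, 93 and 124 for the difference of the drug effects, and 2 higher in CKO EtOH minus control EtOH; 36 genes then lay above every other array in CKO 4OHT. At 1.5-fold the counts were 423 and 408, 496 and 451, 295 and 292, 830 and 635, and 44 and 56 in the same order. With control 4OHT left out, a setting chosen after seeing the data, 100 genes lay above every other array, and the gap of Hmga2 was 4.00. By Pearson correlation 0 of the 8 nearest genes were shared. All 350 repeats of list medians moved by less than 1.5-fold. The alternatives for Hmga1 were not run, since no annotated probe set named it. No paired analysis was possible because each group has 1 array. Intensities near 10 and below limit every fold that rests on them.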
